A study of Mus musculus with 68 samples.

Results

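The genes described here are 10 genes of cortical inhibitory neurons: Gad1, Gad2, Slc32a1, Pvalb, Sst, Vip, Npy, Cck, Lhx6 and Kcnc1. They were found by symbol among the 18088 genes of the deposited table, all 10 were present, and all 10 passed the filter on low values (a mean of at least 5, met by 17922 genes). The study sequenced RNA of prefrontal cortex in 68 libraries, from female and male C57BL/6J mice at postnatal day 25. Mice were either heterozygous for Adnp (labelled HT) or wild type (WT), and had received lithium, fluoxetine or vehicle from day 3 to day 24, that is for 3 weeks, through the milk of the mother. Lithium was given to 9 HT mice (4 female, 5 male) and 8 WT mice (5 female, 3 male). Fluoxetine was given to 10 HT mice and 10 WT mice, with 5 of each sex in either genotype. Vehicle was given to 16 HT mice (8 of each sex) and 15 WT mice (8 female, 7 male). The labels do not describe the mutant allele and do not tie pups to mothers, so litter and treatment cannot be told apart, and a p-value measures the spread between these libraries.

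Cortical inhibitory neurons make GABA with 2 glutamate decarboxylases, encoded by Gad1 and Gad2, and load it into synaptic vesicles with the transporter encoded by Slc32a1. Those born in the medial ganglionic eminence keep expressing the transcription factor Lhx6 and divide mostly into fast-spiking cells that hold the calcium buffer parvalbumin (Pvalb) and cells that release the peptide somatostatin (Sst). Vip, a vasoactive peptide, marks cells of another origin that mostly inhibit other inhibitory cells. Npy is a peptide of neurogliaform cells and of some somatostatin cells. Cck is a peptide of one class of basket cell and is also made by many excitatory neurons of the cortex. Kcnc1 encodes a potassium channel subunit that lets fast-spiking cells repolarise quickly.

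Values are normalized counts, that is reads divided by 1 size factor per library, and 22.4M to 37.5M reads (M for mega, median 30.7M) were recovered per library. Levels of 361 pseudogenes split the libraries into 3 sets that no label names, but that follow drug and, among vehicle mice, replicate number. The fluoxetine mice are all in set 1, with 8 HT vehicle mice, and the lithium mice all in set 2, with 6 HT and 5 WT vehicle mice. The other 2 HT and 10 WT vehicle mice make up set 3. All vehicle mice numbered 6 or higher are in set 2, and WT vehicle mice numbered 1 to 5 are in set 3. Values from a fit with groups split by set are given as values within a set, where a set holds both sides. Adnp RNA was higher, not lower, in libraries labelled HT under vehicle and under fluoxetine. Under vehicle it averaged 2261 ± 285 normalized counts in HT (SD, n = 16) and 1829 ± 361 in WT (n = 15), a log2 difference of 0.32 (limma, adjusted p = 0.0021). Under fluoxetine the difference was 0.32 (adjusted p = 0.039), while that under lithium, 0.25, missed the threshold (adjusted p = 0.19). Gene counts do not show which allele was read, so HT and WT below mean libraries labelled so. Markers of neighbouring tissue were present in every arm. The 11 measured markers of olfactory bulb summed to between 5085 and 47420 normalized counts per library, and the 15 markers of striatal neurons to between 10345 and 37179. The bulb marker Tbx21 was at 0 in 2 libraries and Eomes in none. Excitatory neuron markers of cortex were abundant in every library, with 12 genes that summed to 58926 or more.

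The promoters of 4 members are shown because Npy and Pvalb are the members that passed a test of a drug or genotype, and Sst and Vip hold the motif searched. All sequences are RefSeq windows on GRCm38.p6 of 300 bases, from 250 before to 50 after the start, printed 5′ to 3′ on the gene's own strand, with the motif in capitals. RefSeq gave 13 windows for the 10 members, and the first of the 2 listed for Pvalb is printed.
Npy, chr6:49822460-49822759, plus strand: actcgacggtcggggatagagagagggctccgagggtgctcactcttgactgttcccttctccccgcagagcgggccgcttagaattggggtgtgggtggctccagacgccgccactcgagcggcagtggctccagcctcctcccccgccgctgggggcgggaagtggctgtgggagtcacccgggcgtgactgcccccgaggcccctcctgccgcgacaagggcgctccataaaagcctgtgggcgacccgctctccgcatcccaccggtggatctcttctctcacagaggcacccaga
Pvalb, chr15:78206351-78206650, minus strand: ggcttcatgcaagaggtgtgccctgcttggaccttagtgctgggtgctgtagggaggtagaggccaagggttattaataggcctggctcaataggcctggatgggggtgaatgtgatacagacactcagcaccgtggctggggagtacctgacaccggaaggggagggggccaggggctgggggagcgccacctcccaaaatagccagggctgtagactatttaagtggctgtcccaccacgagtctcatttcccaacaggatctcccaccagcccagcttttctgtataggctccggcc
Sst, chr16:23890795-23891094, minus strand: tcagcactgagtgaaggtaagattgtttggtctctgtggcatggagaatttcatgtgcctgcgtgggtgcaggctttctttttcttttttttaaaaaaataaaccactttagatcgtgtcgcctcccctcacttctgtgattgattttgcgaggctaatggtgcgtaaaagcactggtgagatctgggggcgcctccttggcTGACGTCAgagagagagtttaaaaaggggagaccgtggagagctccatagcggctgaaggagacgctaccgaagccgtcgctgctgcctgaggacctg
Vip, chr10:5638968-5639267, plus strand: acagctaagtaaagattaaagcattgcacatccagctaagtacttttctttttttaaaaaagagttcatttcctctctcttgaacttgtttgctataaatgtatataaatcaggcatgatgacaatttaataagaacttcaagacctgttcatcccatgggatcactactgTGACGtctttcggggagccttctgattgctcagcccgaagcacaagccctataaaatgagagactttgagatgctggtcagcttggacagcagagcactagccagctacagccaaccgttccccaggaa
The motifs were the cyclic AMP response element TGACGTCA, which is its own reverse complement, and its core TGACG, each searched on both strands. The full element stood in 1 of the 13 windows, that of Sst, where both matches of the core lie inside it. The core without the full element stood in the windows of Gad2, Vip, Cck and Kcnc1, so 5 windows held at least the core. Of all 32851 mouse windows of the same length, 1.79% held the full element and 20.8% the core. The printed Npy and Pvalb windows held neither string of letters.

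Per kilobase of annotated exon, the peptide genes Sst, Cck and Npy were the most abundant members. Over all 68 libraries Sst had 6540 ± 985 normalized counts per kilobase and Cck 6477 ± 772 (SD), which do not differ beyond their spread. Npy followed at 4891 ± 559. Gad1 had 1264 ± 481, Slc32a1 865 ± 169 and Gad2 817 ± 132, and the last pair lay within 1 SD of each other. Kcnc1 at 549 ± 32.4 and Pvalb at 542 ± 150 were also level. Vip had 337 ± 39.2 and Lhx6, the transcription factor, 107 ± 20.8. The order is over the mean of all arms, and exon length is the union of annotated exons, which is longer than most transcripts.

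The members differed widely in how much they varied. Kcnc1 had a coefficient of variation of 5.90% over the 68 libraries, and Npy, Vip and Cck lay between 11.4 and 11.9%. Gad1 had 38.1%, the largest of the 10, and Pvalb had 27.7%. Gad1 ran between 5977 and 21062 normalized counts, while the lowest and highest Gad2 were 3650 and 7512. The ratio of Gad1 to Gad2 in a library lay between 1.31 and 3.30. The spread of Gad1 was within arms and not only between them: WT fluoxetine libraries ran between 5977 and 19064, and WT vehicle libraries between 6288 and 21062. Both lithium arms were tight, at 6979 to 10126 in HT and 6872 to 10697 in WT. The vehicle libraries of set 2, which holds all lithium libraries, had a narrow range too. They ran between 6795 and 11725 in HT and between 6856 and 11020 in WT.

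**Figure D1:**
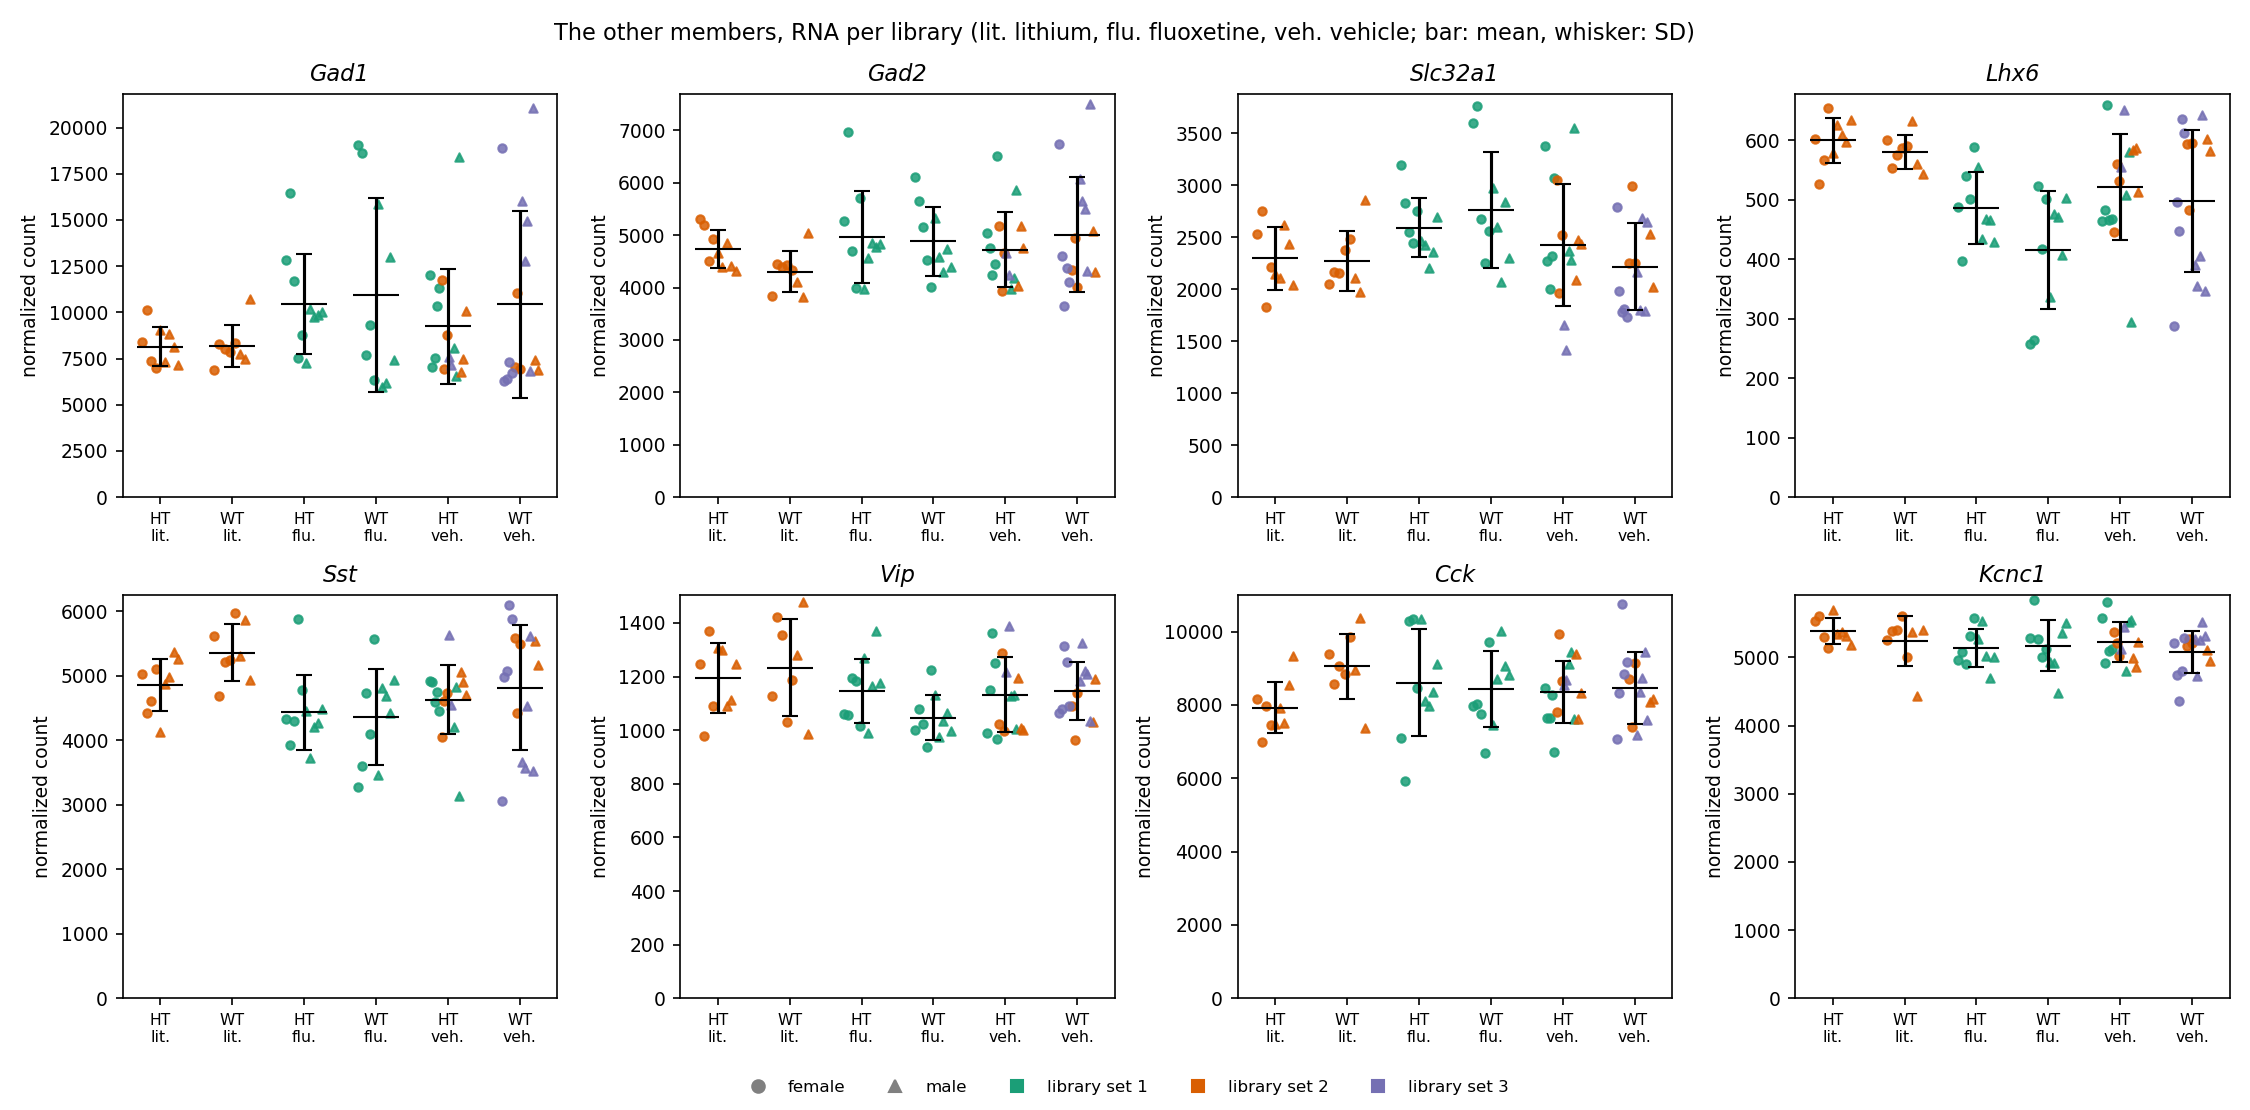
Normalized counts of 8 members in every library, by genotype and drug, with 1 point per library. The horizontal bar is the mean of an arm and the whisker 1 SD. Colour gives the library set and shape the sex. Gad1 has a long upper tail in the fluoxetine and vehicle arms, up to 21062, while no lithium library passes 10697. All lithium libraries are in set 2, where no vehicle library passes 11725.

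Lithium against vehicle in WT mice asks what the drug does without the mutation. It was the comparison in which most genes moved, and 2 of the 10 members passed, both upward: Npy and Pvalb. Among all genes tested, 36.1% passed (18.6% higher and 17.5% lower), so a count of 2 of 10 lies below the background share. All lithium libraries are in set 2, while 10 of the 15 WT vehicle libraries are in set 3, so drug and set are partly mixed. Within set 2, 0.664% of genes passed. Between sets 3 and 2 of the WT vehicle libraries alone, 42.4% of genes did. The median log2 difference of the 10 members was 0.10, and that of all genes −0.02. Fewer cells of a type and less RNA per cell cannot be told apart in bulk tissue, and this holds for every value given.

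Npy had 3418, 3347, 3232, 3133 and 3348 normalized counts in the WT lithium females and 3276, 3792 and 3127 in the WT lithium males. WT vehicle libraries ran between 2550 and 3221, with a median of 2817 (n = 15). All 8 lithium libraries lay above that median, and 6 of the 8 above every vehicle library, so the ranges met only at their edges. The means were 3334 ± 212 in WT lithium and 2832 ± 225 in WT vehicle (SD), a log2 difference of 0.24 (SE 0.05, limma adjusted p = 3.3e-04), or 18.5% more. The difference was 0.18 in females (adjusted p = 0.091) and 0.31 in males (adjusted p = 0.0057). Within set 2, which holds all 8 lithium and 5 of the vehicle libraries, it was 0.28 (adjusted p = 0.028), beside 0.664% of genes that passed there in all. It passed in each of 10 other settings, with adjusted p between 6.2e-05 and 0.028.

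Pvalb, the calcium buffer of fast-spiking cells, had 926, 787, 836, 763 and 875 normalized counts in the WT lithium females and 870, 1018 and 685 in the WT lithium males. WT vehicle libraries ran between 321 and 681, with a median of 609. The ranges did not overlap, and the lowest lithium library lay just above the highest vehicle library. Across all genes 0.246% had arms that did not overlap in this comparison. Means were 845 ± 103 in WT lithium (n = 8) and 558 ± 118 in WT vehicle (n = 15), a log2 difference of 0.63 (SE 0.14, limma adjusted p = 6.2e-04), or 54.9% more. In females it was 0.55 (adjusted p = 0.070) and in males 0.71 (adjusted p = 0.016).

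The Pvalb call did not hold within set 2, where the log2 difference was 0.50 with a 95% interval of 0.13 to 0.87 (adjusted p = 0.23). WT vehicle libraries in that set averaged 592 ± 66.5 (n = 5), and all of them lay under the lowest lithium library. Over 10 other settings the adjusted p was between 7.5e-05 and 0.23, and 9 of them passed. One that passed was the fit within the set with olfactory bulb and striatal marker scores as covariates (0.57, adjusted p = 0.014). Markers of other cells were called in this comparison too, beside 36.1% of all genes, with 4 of 8 astrocyte markers higher and 1 lower, 3 of 8 oligodendrocyte markers and 2 of 8 microglia markers higher, 2 of 8 endothelial markers lower and 3 of 8 choroid plexus markers lower. Of 12 excitatory markers 2 were higher and 3 lower, and of 15 striatal markers 1 was higher. The 11 bulb markers had a median log2 difference of −1.12 with 1 called. They summed to 5085 to 13172 normalized counts in WT lithium libraries and to 5437 to 47420 in WT vehicle libraries. Leaving out every library with Tbx21 at 100 or more normalized counts, which keeps 7 WT lithium and 9 WT vehicle libraries, gave 0.47 for Pvalb (adjusted p = 5.4e-04) and 0.24 for Npy (adjusted p = 0.0087).

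**Figure D2:**
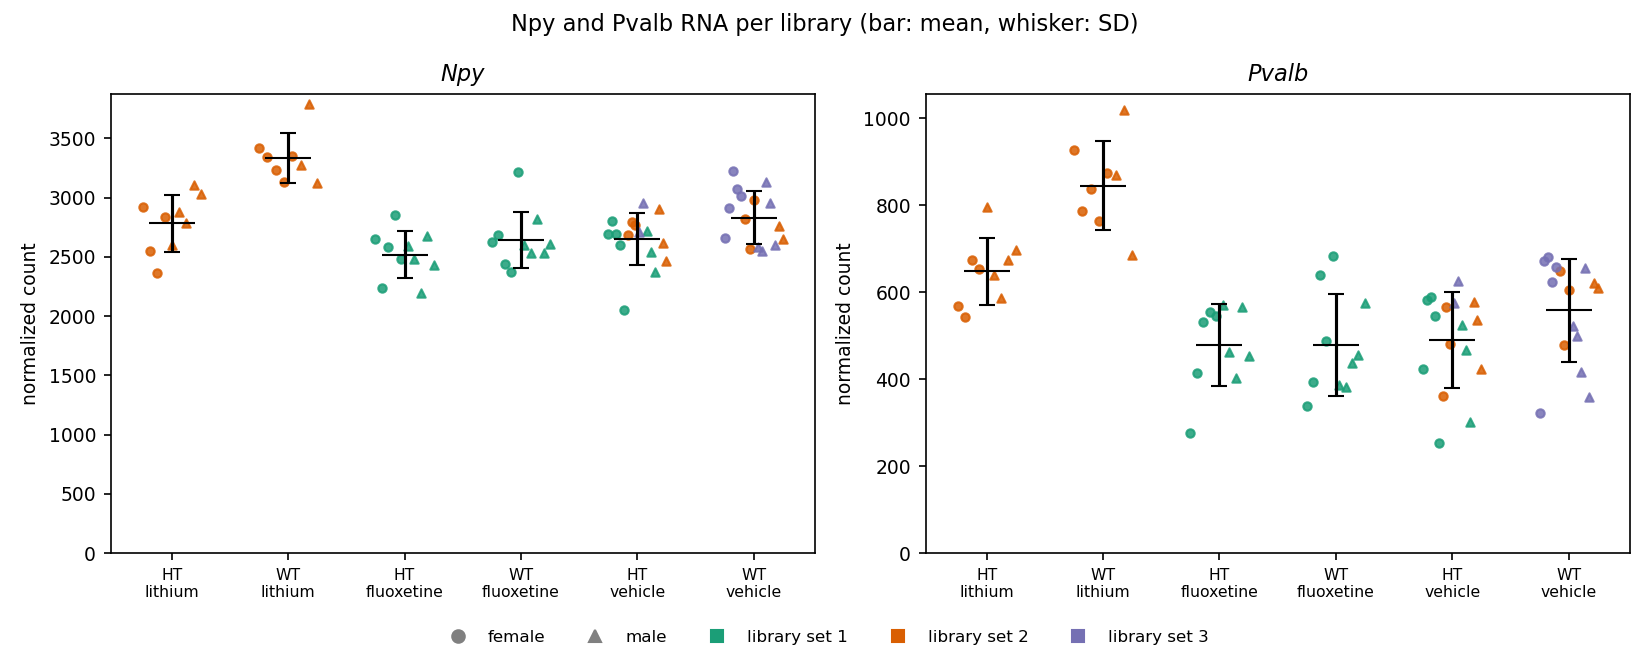
Normalized counts of Npy and Pvalb per library in the 6 combinations of genotype and drug. The horizontal bar is the mean and the whisker 1 SD. Colour gives the library set and shape the sex. WT lithium libraries lie highest for both genes, with Npy at 3127 to 3792 and Pvalb at 685 to 1018.

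The other 8 members did not pass in WT mice under lithium. Gad2 had 4306 ± 394 normalized counts under lithium and 5013 ± 1093 under vehicle (log2 −0.20, adjusted p = 0.075), with 7 of 8 lithium libraries below the vehicle median. Lhx6 had 580 ± 28.8 under lithium and 498 ± 119 under vehicle (log2 0.26, adjusted p = 0.091), with 8 of 8 above the vehicle median. Within set 2 the difference was −0.08 for Gad2 and 0.02 for Lhx6. Sst had 5354 ± 443 under lithium and 4812 ± 968 under vehicle (log2 0.19, adjusted p = 0.13), and within set 2 its difference was 0.03. For Gad1, Slc32a1, Vip, Cck and Kcnc1 the adjusted p was 0.28 or more.

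Lithium against vehicle in HT mice asks the same of mice with the mutation, and no member passed, beside 1.52% of all genes. Pvalb came nearest. It had 569, 543, 673 and 652 normalized counts in the HT lithium females and 795, 639, 587, 673 and 698 in the HT lithium males. HT vehicle libraries ran between 253 and 626, with a median of 530 (n = 16). All 9 lithium libraries lay above that median and 6 of the 9 above every vehicle library. The means were 648 ± 76.3 in HT lithium and 489 ± 110 in HT vehicle, with a log2 difference of 0.43 (95% interval 0.16 to 0.69, limma adjusted p = 0.083). Within set 2 it was 0.40 (adjusted p = 0.35), with no member called there beside 0.162% of all genes. Bulb markers summed to 5352 to 11617 in HT lithium libraries and to 5613 to 43641 in HT vehicle libraries. Their part in these differences was not tested beyond the fits with covariates and without the libraries high in Tbx21. Over 10 other settings the Pvalb difference lay between 0.22 and 0.45 and its adjusted p between 0.023 and 0.35. The 1 setting that passed was the fit with replicate number as a block.

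Npy did not pass in HT mice, with 2785 ± 240 normalized counts under lithium and 2649 ± 218 under vehicle (log2 0.07, 95% interval −0.03 to 0.16, adjusted p = 0.50). Lhx6 had 600 ± 38.5 under lithium and 522 ± 88.9 under vehicle (log2 0.22, adjusted p = 0.33), with 9 of 9 lithium libraries above the vehicle median. The remaining members had log2 differences between −0.13 and 0.08.

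Whether lithium acted differently in HT and WT mice was tested as a difference of the 2 lithium effects. No member passed, beside 2.8% of all genes. For Npy the lithium effect in HT minus that in WT was −0.18 on the log2 scale (95% interval −0.32 to −0.04, adjusted p = 0.14). For Pvalb it was −0.20 (interval −0.59 to 0.18, adjusted p = 0.58). Within set 2 these were −0.25 for Npy (adjusted p = 0.42) and −0.10 for Pvalb (adjusted p = 0.96). A p above the threshold does not show that both genotypes responded alike, and the intervals allow differences of that size.

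HT against WT under lithium, where all 17 libraries lie in set 2, gave 1 member that passed, Npy, which was lower in libraries labelled HT. The background was 2.51% of genes, with 1.48% higher and 1.03% lower. Splitting groups by set leaves these groups whole, so the Npy difference stays at −0.27 and only the shared spread changes. That fit is no separate check (limma adjusted p = 0.0021, beside 4.49% of genes). Npy had 2922, 2548, 2362 and 2841 normalized counts in HT females and 2598, 2876, 2784, 3106 and 3027 in HT males, against 3127 to 3792 in the 8 WT libraries given above. Every HT library lay below every WT library, which was so for 0.597% of genes in either direction. Means were 2785 ± 240 in HT (n = 9) and 3334 ± 212 in WT (n = 8), a log2 difference of −0.27 (SE 0.06, limma adjusted p = 0.0028), or −17.3%. It was −0.31 in females (adjusted p = 0.045) and −0.24 in males (adjusted p = 0.33). Adjusted p lay between 5.7e-04 and 0.0040 over 10 other settings, the fit split by set among them. This comparison shares its WT lithium libraries with that of lithium in WT mice.

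Pvalb was 648 ± 76.3 in HT lithium and 845 ± 103 in WT lithium (log2 −0.39, SE 0.16, adjusted p = 0.20), with 7 of 9 HT libraries below every WT library. It did not pass, but did so with the marker scores as covariates (−0.35, adjusted p = 0.036) and without the 1 lithium library of Tbx21 at 100 or more and its 23 counterparts in other arms (−0.47, adjusted p = 1.9e-04). The adjusted p lay between 1.9e-04 and 0.20 over 10 settings. Striatal markers had a higher median sum in HT lithium than in WT lithium libraries, with ranges that overlapped. They summed to 15110 to 33609 normalized counts in HT lithium libraries, with a median of 22371, and to 14358 to 23712 in WT lithium libraries, with a median of 16857. Cck was 7928 ± 699 in HT and 9048 ± 892 in WT (log2 −0.19, adjusted p = 0.25). It passed only without the libraries high in Tbx21 (−0.25, adjusted p = 0.036). Gad1 was level at 8149 ± 1064 in HT and 8160 ± 1130 in WT. Gad2, Slc32a1, Sst, Vip, Lhx6 and Kcnc1 had log2 differences between −0.14 and 0.14.

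HT against WT under vehicle gave no member that passed, while 15% of all genes did. The largest log2 difference was that of Pvalb, −0.19 (95% interval −0.42 to 0.04, adjusted p = 0.26), at 489 ± 110 normalized counts in HT (n = 16) and 558 ± 118 in WT (n = 15). Npy had 2649 ± 218 in HT and 2832 ± 225 in WT (log2 −0.09, adjusted p = 0.12), and within set 2 its difference was −0.02, where no member passed beside 0.536% of genes. Slc32a1 had 2427 ± 587 in HT and 2215 ± 419 in WT (log2 0.11, adjusted p = 0.42). Differences of Gad1, Gad2, Sst, Vip, Cck, Lhx6 and Kcnc1 lay between −0.11 for Gad1 and 0.09 for Lhx6, and both of these turned sign within set 2, with Gad1 at 0.15 and Lhx6 at −0.10. Within that set Pvalb was at −0.29, Sst at −0.17 against −0.03 over all vehicle libraries, and Slc32a1 at 0.02. The median over the 10 members was −0.03, and over all genes −0.01. The set moved with this comparison as well. Among WT vehicle libraries, those of set 3 had less Lhx6 than those of set 2 (log2 −0.36, adjusted p = 0.045), beside 42.4% of all genes that differed between those sets, which were themselves drawn from these values.

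HT against WT under fluoxetine gave no member that passed, beside 1.98% of genes. Lhx6 had 487 ± 60.5 normalized counts in HT and 416 ± 98.7 in WT (n = 10 each, log2 0.26, 95% interval 0.02 to 0.50, adjusted p = 0.37), with 7 of 10 HT libraries above the WT median. The olfactory bulb markers summed to 6654 to 27464 in HT and 5567 to 45125 in WT, so the HT range lay inside that of WT. Their median sum was higher in HT (15519 against 10855) and their mean sum higher in WT (19377 against 15707). With the marker scores as covariates the Lhx6 difference was 0.30 and passed (adjusted p = 0.0045). Over 10 settings the Lhx6 difference ran between 0.08 and 0.30 and its adjusted p between 0.0045 and 0.92, and 2 of the 10 passed. Vip had 1147 ± 119 in HT and 1047 ± 83.4 in WT (log2 0.13, adjusted p = 0.47). Pvalb was level at 478 ± 94.8 in HT and 478 ± 117 in WT. Other members differed by −0.07 to 0.03.

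Fluoxetine against vehicle gave no member that passed in either genotype, with 1.22% of genes passing in HT mice and 5.43% in WT mice. In HT mice the log2 differences lay between −0.09 for Lhx6 and 0.20 for Gad1, with adjusted p of 0.55 or more. Within set 1, which holds all 10 HT fluoxetine and 8 HT vehicle libraries, Lhx6 was at 0.03, with its sign turned, Gad1 at 0.07, and Slc32a1 at −0.02 against 0.13 over all HT libraries. In WT mice Slc32a1, the vesicular GABA transporter, came nearest. It ran between 2070 and 3765 in fluoxetine libraries, with a median of 2640, and between 1732 and 2989 in vehicle libraries, with a median of 2162. The means were 2763 ± 557 in WT fluoxetine (n = 10) and 2215 ± 419 in WT vehicle (n = 15), a log2 difference of 0.32 (95% interval 0.11 to 0.53, adjusted p = 0.064). It passed with DESeq2 (0.32, adjusted p = 0.035) and with the marker scores as covariates (0.26, adjusted p = 0.013), and over 8 settings the adjusted p lay between 0.013 and 0.49. No set holds both WT fluoxetine and WT vehicle libraries, so drug and set cannot be told apart. Lhx6 had 416 ± 98.7 under fluoxetine and 498 ± 119 under vehicle (log2 −0.26, adjusted p = 0.17), and Pvalb had 478 ± 117 under fluoxetine and 558 ± 118 under vehicle (log2 −0.22, adjusted p = 0.33). The fluoxetine effect in HT minus that in WT did not pass for any member (adjusted p of 0.48 or more), and by limma 0 genes passed in all, with 2187 at an unadjusted p under 0.05 (edgeR 1 and DESeq2 10 genes).

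Sex was tested over all 6 arms as female minus male. None of the 10 members passed, beside 0.1% of all genes, and the log2 differences lay between −0.05 for Cck and 0.09 for Slc32a1. Whether the HT effect under vehicle differed between the sexes, as the effect in females minus that in males, was tested too. No member passed (adjusted p of 0.97 or more), with Gad2 at 0.32 (95% interval 0.03 to 0.61) and Gad1 at 0.58 (95% interval −0.09 to 1.25). Within set 2 the same differences were 0.06 for Gad2 and −0.03 for Gad1. By limma 0 genes passed in that test, with 662 at an unadjusted p under 0.05 (edgeR 0 and DESeq2 1 gene).

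**Figure D3:**
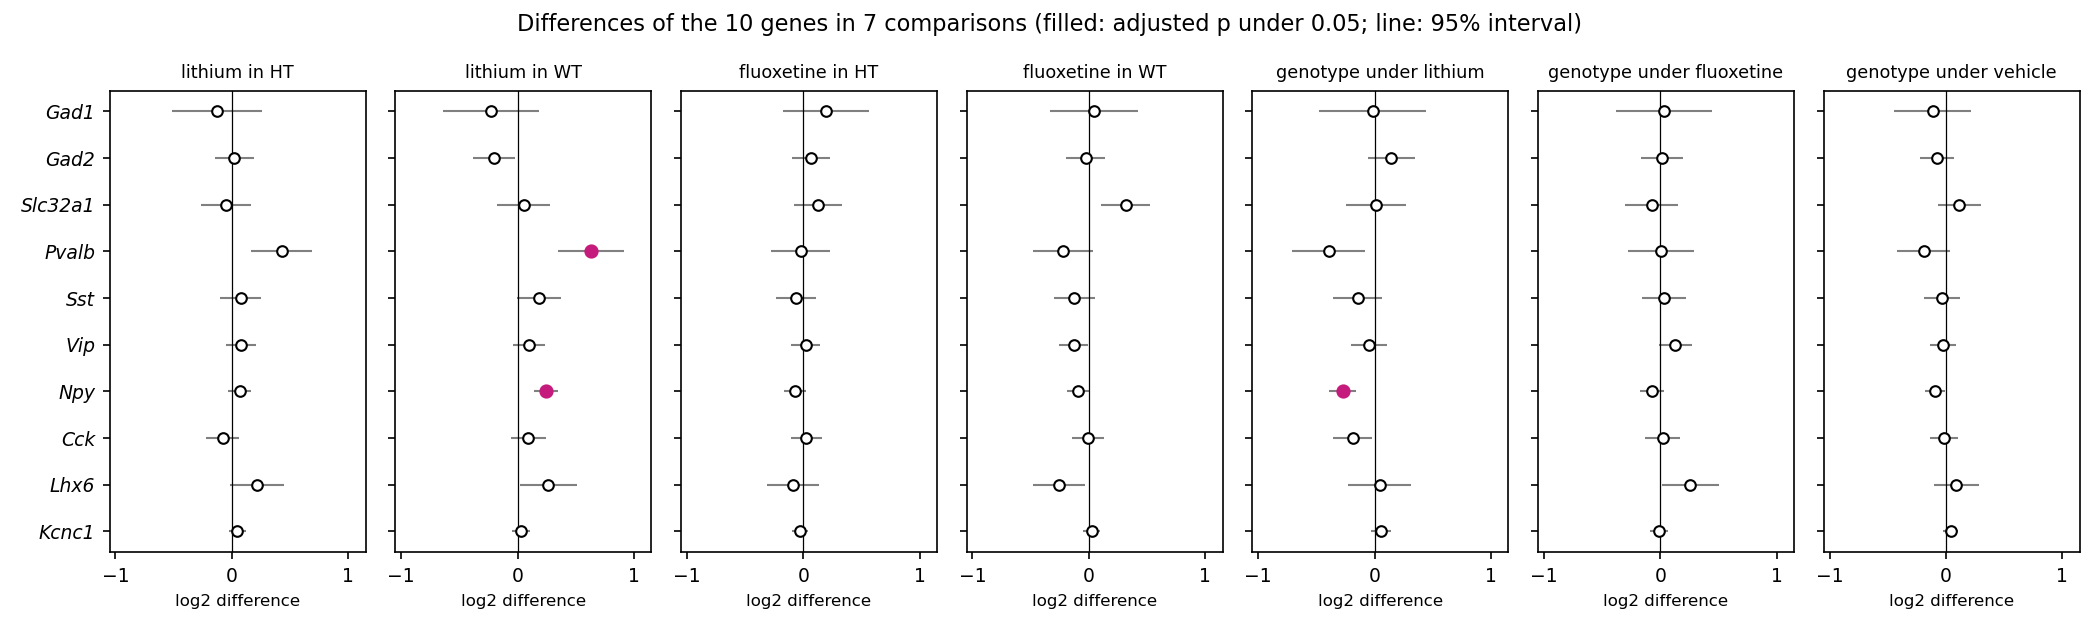
Log2 differences of the 10 members in 7 comparisons, drug minus vehicle or HT minus WT, with 95% intervals. Filled points passed at an adjusted p under 0.05 over all genes. The 3 filled points are Pvalb at 0.63 and Npy at 0.24 for lithium in WT, and Npy at −0.27 for genotype under lithium. Gad1 has the widest intervals and Kcnc1 the narrowest.

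The members varied together from library to library in 2 opposed groups. To see this apart from treatment, the mean of each group within each library set was subtracted, and log2 values were correlated over the 68 libraries. Gad1, Gad2 and Slc32a1, which serve the making and loading of GABA, were high in the same libraries. Lhx6, Sst, Pvalb, Npy, Cck and Vip correlated positively with one another, with r between 0.20 for Sst and Vip and 0.81 for Sst and Lhx6, and negatively with the first group, with r between −0.87 and −0.26. Vip with Sst and Vip with Lhx6 did not pass over the 45 pairs, and Npy with Slc32a1 passed by rho (adjusted p = 0.0452) but not by r (adjusted p = 0.117).

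For Gad1 and Gad2 Pearson's r was 0.81 (Spearman's rho 0.76, both permutation p = 1e-05, the smallest that 100000 resamples can give; adjusted p = 2.4e-05 and 2.8e-05 over 45 pairs). Without the 2 libraries farthest from the median r was 0.76, and within sets 1, 2 and 3 it was 0.75, 0.80 and 0.94. For Lhx6 and Gad1 r was −0.87 (rho −0.82, the same p-values), and −0.84 without the 2 farthest libraries, with −0.89, −0.86 and −0.86 in the 3 sets. For Sst and Gad1 r was −0.82 (rho −0.70, the same p-values), and −0.77 without the 2 farthest. For Sst and Lhx6 r was 0.81 (rho 0.67, the same p-values), and 0.75 without the 2 farthest. Npy and Cck had r of 0.69 (rho 0.67, the same p-values), and 0.67 without the 2 farthest. Kcnc1 had r between −0.28 with Vip and 0.32 with Slc32a1, and of its 9 pairs the one with Slc32a1 passed, by r (adjusted p = 0.0469) and not by rho (adjusted p = 0.0575). Within set 2 its r was −0.62 with Sst and −0.57 with Npy, against −0.09 with either in set 1 and −0.02 and −0.04 in set 3.

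**Figure D4:**
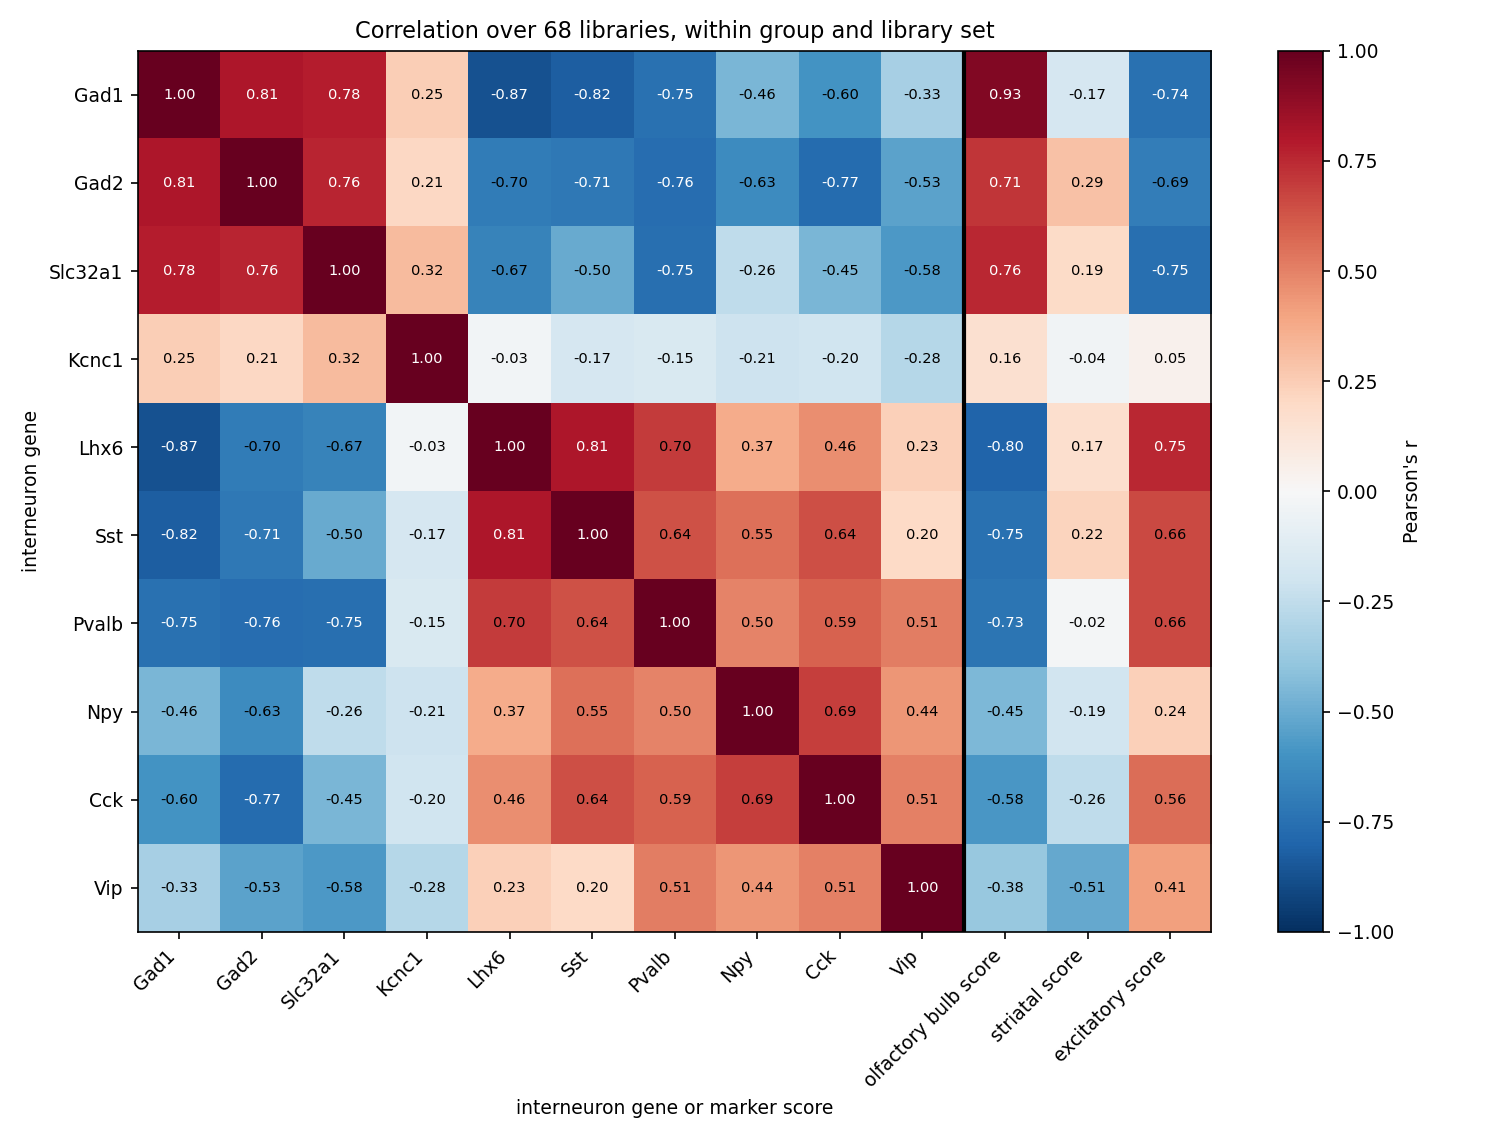
Pearson's r between members, and between members and 3 marker scores right of the line, over 68 libraries after subtraction of each group's mean within its library set. Red is positive and blue negative. Gad1, Gad2 and Slc32a1 form a red block at 0.76 to 0.81, and Lhx6, Sst and Pvalb another at 0.64 to 0.81.

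The 2 groups followed the level of olfactory bulb markers. The bulb score is the mean log2(value + 1) of the 11 bulb markers measured of 12 listed, and it ran between 6.17 and 11.4. Gad1 had r of 0.93 with it (rho 0.95, both permutation p = 1e-05, the smallest possible, adjusted p = 3e-05 over 30 relations), 0.92 without the 2 farthest libraries, and 0.95, 0.96 and 0.96 within the 3 sets. Slc32a1 had r of 0.76 and Gad2 0.71 (rho 0.75 and 0.70, the same p-values), and 0.73 and 0.66 without the 2 farthest. In the other direction Lhx6 had −0.80 (rho −0.81), Sst −0.75 (rho −0.71) and Pvalb −0.73 (rho −0.74), with the same p-values, and −0.77, −0.70 and −0.69 without the 2 farthest.

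Npy, one of the 2 members that passed a test, was tied less closely to the bulb score, with r of −0.45 (rho −0.43, permutation p = 0.00139 and 0.00154, adjusted p = 0.00245 and 0.00272), and −0.40 without the 2 farthest. Its r was −0.35, −0.55 and −0.54 within sets 1, 2 and 3, and set 2 holds all lithium libraries. Vip had a weaker tie over all libraries, with r of −0.38 (rho −0.37, permutation p = 0.00305 and 0.00464, adjusted p = 0.00508 and 0.00773), but not in set 2. Its r was −0.27, −0.57 and −0.28 within sets 1, 2 and 3. Cck had r of −0.58 (rho −0.55, permutation p = 2e-05 and 6e-05, adjusted p = 4.62e-05 and 1.29e-04). Kcnc1 had r of 0.16 (rho 0.15, permutation p = 0.297 and 0.306, adjusted p = 0.33 and 0.353). With the score of 12 excitatory neuron markers the signs turned round: Gad1 had −0.74 (rho −0.71) and Lhx6 0.75 (rho 0.69), each with p of 1e-05, and −0.70 and 0.70 without the 2 farthest. With the score of 15 striatal markers Vip had an r of −0.51 (rho −0.54, permutation p = 5e-05 and 3e-05, adjusted p = 1.07e-04 and 7.5e-05), and −0.50 without the 2 farthest. By Pearson's r no other member passed with that score, while Sst passed by rho (r 0.22, rho 0.33, adjusted p = 0.118 and 0.0105).

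All values of a library share its size factor, and the bulb score rests partly on genes that cortex expresses too: Meis2 had at least 3409 normalized counts in every library and Trpc4 446 to 662. Eomes ran between 0.894 and 2129 and Doc2g between 41.4 and 7092. The 2 libraries with the highest score, WT vehicle female 1 and WT vehicle male 5, both had a Gad1 of at least 18896 and a bulb score over 11. In WT vehicle female 1 Sst stood at 3056, Lhx6 at 288 and Pvalb at 321, the lowest Sst of all libraries. Whether bulb tissue took part in these differences was not tested, apart from the fits given above with scores as covariates and without the libraries high in Tbx21.

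**Figure D5:**
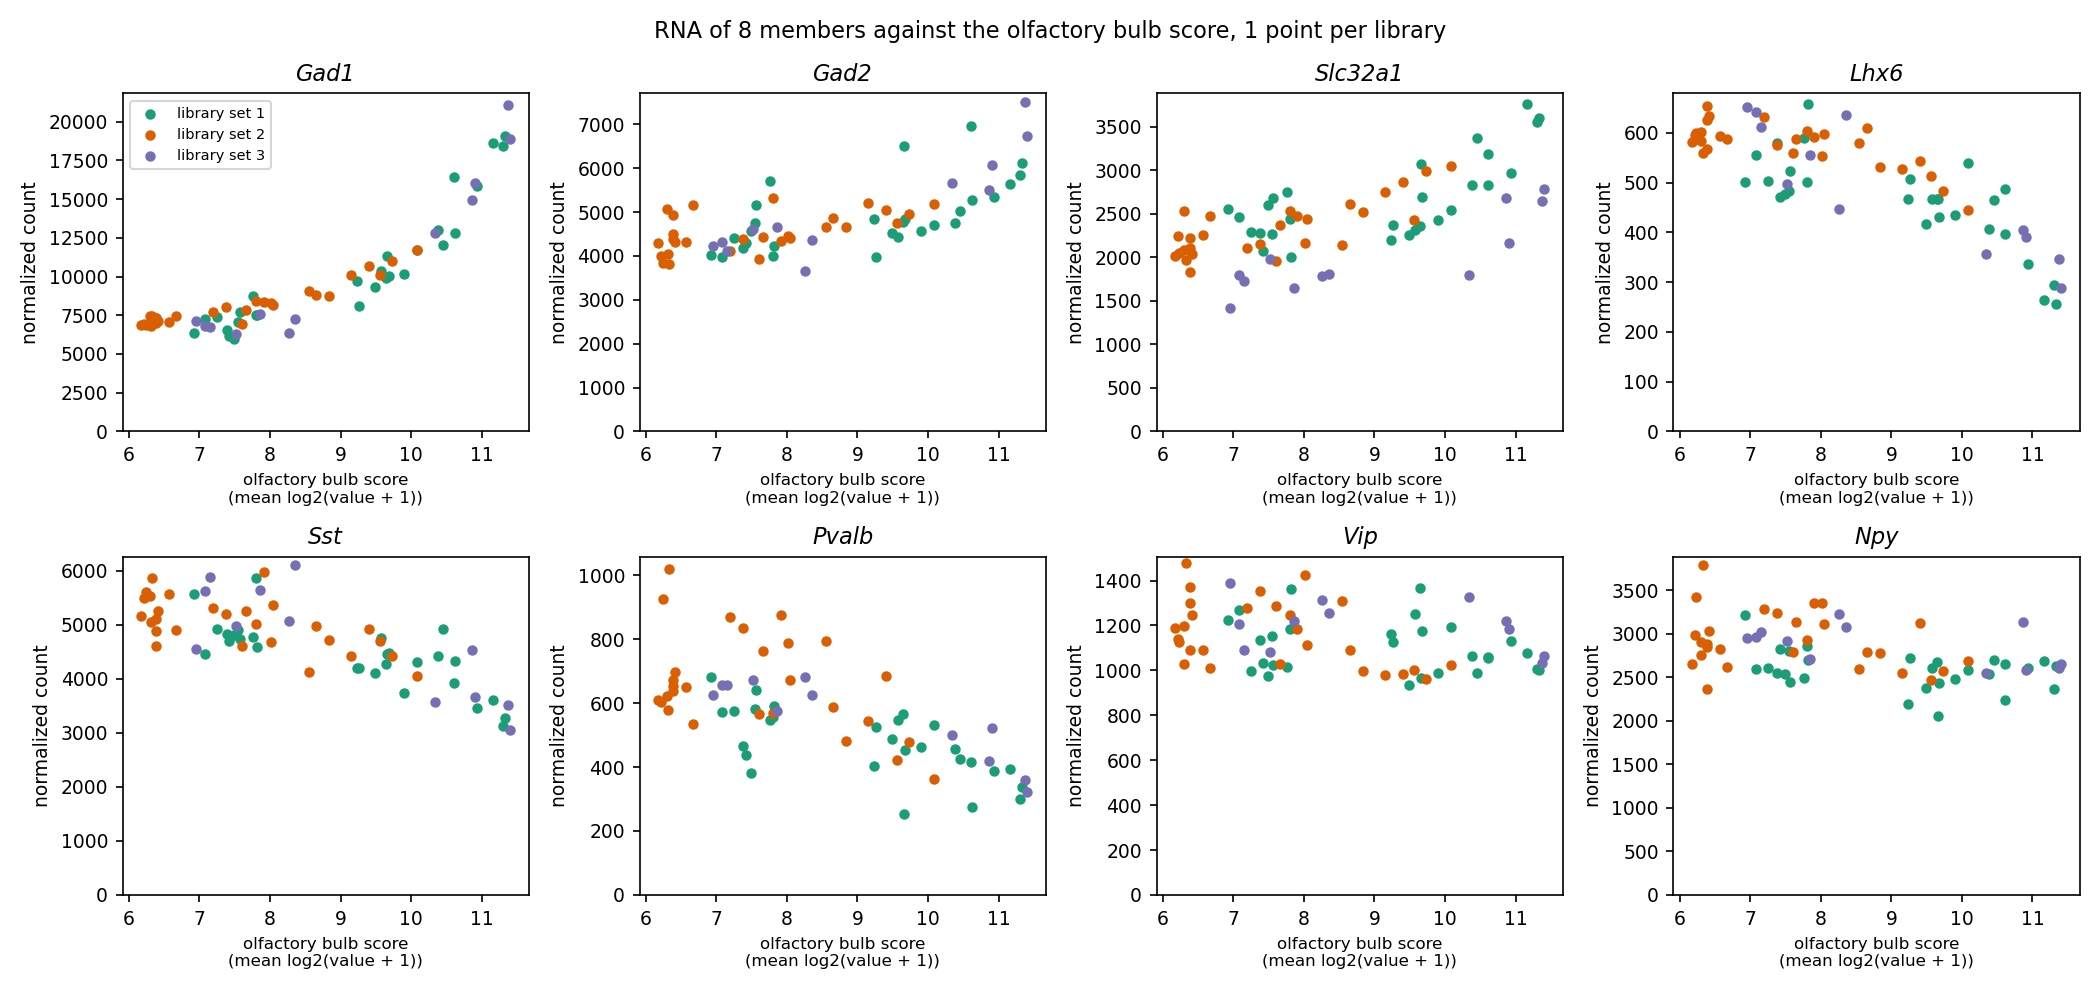
Normalized counts of 8 members (vertical) against the olfactory bulb score, the mean log2(value + 1) of 11 markers (horizontal), with 1 point per library coloured by library set. Gad1 climbs to 21062 as the score rises to 11.4, and Lhx6, Sst and Pvalb decline.

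After the same subtraction, over the 68 libraries and all genes tested, the genes most like Gad1 were Synpr (r = 0.98), Ablim3 (0.97) and Ptpro (0.97). Those most like Pvalb were Arpp19, 5730409E04Rik and Camk2n1, each at r of 0.82 to 0.83. Those most like Sst were Kcnc4 (0.88), Fsd1 (0.87) and Plcxd1 (0.86), and those most like Vip were Calb1 (0.81), Palmd (0.78) and Nfyb (0.76).

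Lists of other genes of inhibitory cells and synapses were counted in the same fits. Of 15 measured genes of Vip and Htr3a cells, 3 were higher and 1 lower in HT under vehicle, beside 7.74% higher and 7.21% lower of all genes. The median of the 15 was −0.01, as for all genes. Sncg, a synuclein found in a class of Cck basket cells, averaged 59.7 ± 5.63 normalized counts in HT vehicle libraries (n = 16) and 34.4 ± 9.24 in WT vehicle libraries (n = 15), a log2 difference of 0.83 (SE 0.10, adjusted p = 1.5e-08). Under fluoxetine it averaged 59.4 ± 11.4 in HT and 34.9 ± 7.93 in WT (n = 10 each, log2 0.77, adjusted p = 4.9e-05). Under lithium it averaged 59.0 ± 11.9 in HT (n = 9) and 40.2 ± 8.37 in WT (n = 8, log2 0.52, adjusted p = 0.031). HT was thus higher in all 3 treatments. Within set 2 the vehicle difference was 0.59 (adjusted p = 0.15).

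Tac2, a tachykinin precursor of Vip cells, was higher in HT in the same 3 comparisons. Its log2 difference was 0.23 under vehicle (adjusted p = 0.0088), 0.39 under fluoxetine (adjusted p = 9.9e-04) and 0.31 under lithium (adjusted p = 0.031). Under fluoxetine it averaged 228 ± 26.2 normalized counts in HT and 174 ± 9.82 in WT. Vip itself did not pass in any of them.

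GABA-A receptor subunit genes encode the channels that GABA opens. Of 12 measured, 1 was higher and 7 were lower in HT under vehicle, beside 7.74% higher and 7.21% lower of all genes, with a median log2 difference of −0.13. Gabrd, the subunit of receptors outside synapses, was the higher one (log2 0.22, adjusted p = 0.0032), and Gabrb1 (−0.18, adjusted p = 0.0040) and Gabra5 (−0.29, adjusted p = 0.0091) were among the lower. For lithium in WT 1 of 12 was higher and 6 were lower, beside 18.6% higher and 17.5% lower of all genes, with a median of −0.15, and with Gabrd at 0.39 (adjusted p = 1.9e-05), Gabra2 at −0.44 (adjusted p = 0.0013) and Gabrb1 at −0.22 (adjusted p = 0.0017). Within set 2 none of the 12 passed in either comparison, beside 0.536% of all genes for HT against WT under vehicle and 0.664% for lithium in WT. Both comparisons share the WT vehicle libraries, of which those of sets 3 and 2 differed at 7 of these subunits, beside 42.4% of all genes. Gabra2 was higher in set 3 by 0.72 (limma adjusted p = 1.1e-09), but the sets were themselves drawn from these values. Under lithium, within 1 set, Gabrb2 was higher in HT (0.30, adjusted p = 0.045).

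Of 12 genes of somatostatin cells, 1 was higher and 1 lower for lithium in WT, with a median of −0.10, a smaller share than the 36.1% of all genes called there. Crhbp, a binding protein for corticotropin-releasing hormone found in somatostatin cells, was the higher one. It averaged 557 ± 55.3 normalized counts in WT lithium libraries (n = 8) and 458 ± 55.5 in WT vehicle libraries (n = 15, log2 0.29, adjusted p = 1.9e-04), and within set 2 the difference was 0.23 (adjusted p = 0.14). It averaged 467 ± 37.2 in HT lithium libraries (n = 9) and was lower than in WT lithium (log2 −0.25, adjusted p = 0.023). Grin3a, a glutamate receptor subunit, was the lower one (log2 −0.16, adjusted p = 0.0045), and within set 2 it passed as well (−0.24, adjusted p = 0.0066). Of the 14 parvalbumin cell genes, 3 were higher and 3 lower for lithium in WT, with a median of 0.00, a share near the 36.1% of all genes. Cplx1, which binds the vesicle fusion machinery (0.20, adjusted p = 6.6e-05), was higher. The neuregulin receptor Erbb4 (−0.33, adjusted p = 1.5e-05), Hapln1 of the perineuronal net (−0.28, adjusted p = 0.0015) and the coactivator Ppargc1a (−0.20, adjusted p = 0.019) were lower. None of the 14 passed within set 2, where 0.664% of all genes did. Erbb4 was higher in HT than in WT under lithium (0.22, adjusted p = 0.034).

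Of 15 measured transcription factors of inhibitory neurons, 2 were higher and 7 lower for lithium in WT, beside 18.6% higher and 17.5% lower of all genes, with a median of −0.52. None of the 15 passed within set 2, beside 0.664% of all genes. Nr2f2 (log2 −0.52, adjusted p = 5.9e-04) and Etv1 (−0.33, adjusted p = 0.0046) were among the lower, and Npas1 was among the higher (0.34, adjusted p = 0.0099). Dlx2 (−1.03, adjusted p = 0.025), Dlx5 (−0.96, adjusted p = 0.037) and Dlx6 (−0.77, adjusted p = 0.016), which olfactory bulb interneurons express as well, were lower as well. Of 11 genes of GABA uptake, breakdown and synapse assembly, 1 was higher for lithium in HT and none lower, with 1.52% of all genes called there. It was Aldh5a1, which oxidises the breakdown product of GABA (log2 0.15, adjusted p = 0.0078), and it did not pass within set 2.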

How the data were processed

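The deposited table holds normalized counts for 18088 Ensembl genes in 68 libraries, a signal that the authors made by dividing read counts by 1 size factor per library, as its whole-number steps show. Per the submitters' processing notes the tools were Salmon 0.11.2, R 3.6.0 and DESeq2 1.19.11 and the build GRCm38, with no roles stated. Libraries were stranded and poly(A)-selected, per the labels' protocols. Symbols came from GENCODE M21 (18077 matched). In all libraries 100% of values came out as whole reads (within 0.01), of 22.4M to 37.5M reads (M for mega), which sets the counting precision.

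The 10 members and all lists were chosen with earlier results of these data known. Genes with a mean of at least 5 (17922, with 166 left out) were tested as log2(value + 1) with limma 3.58.1 (trended and robust, in R 4.3.3), with 12 groups of genotype, drug and sex in 1 fit and Benjamini-Hochberg adjustment over all genes. Every adjusted p of a difference between groups comes from that fit unless a setting is named, and a member or gene passed when it was under 0.05. Drug and genotype contrasts average the sexes. Fold changes on this scale understate those of low genes. Library sets came from clustering 361 pseudogenes. Alternatives were a pseudocount of 5, no filter, TMM scaling, edgeR 4.0.16 and DESeq2 1.42.0 on recovered reads, a replicate block, groups split by set, each library left out, and, added after seeing the data, the bulb and striatal scores as covariates and the removal of 24 libraries with Tbx21 of 100 or more. The text names all members and, from each list, at most 4 called genes of smallest p per comparison, besides the 3 genes of highest r with each of Gad1, Pvalb, Sst and Vip, Adnp, and the Dlx genes, which were chosen after their values were seen. Some genes that this rule names are not reported here. Correlations used 100000 permutations. The fit was tested on simulated data.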

Additional observations from a re-analysis of the deposited data

Results flagged for a closer look

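In 8 of 110 tested combinations of gene and group 1 library stood apart from the others of its group, where chance gives about 1 in 20. WT vehicle female 1 was highest of its 8 for Gad1 at 18896 normalized counts and for Gad2 at 6741. Its Tbx21 was 574, the highest of all libraries. HT vehicle male 5 was highest of its 8 for Gad1 at 18433 and lowest for Lhx6 at 294, with a Tbx21 of 561. Gad1 was lowest of its 5 in HT fluoxetine male 1 at 7246. Gad2 was lowest of its 5 in WT lithium female 1 at 3842. Npy was lowest of its 8 in HT vehicle female 5 at 2052 and highest of its 5 in WT fluoxetine male 3 at 2820. In 0 of 50 pairs of effects did all samples of the 2 groups move in opposite directions.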

How the results depend on the processing

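No called value changed sign. Counts of genes and members called depended on the library sets, the marker scores and the block. For HT against WT under vehicle 2680 genes passed, against 96 with groups split by set, 102 with that and marker scores, and 269 without libraries high in Tbx21. Under fluoxetine 355 passed, against 868 with marker scores (1 member), 1162 with set and scores (1 member) and 105 without high Tbx21. Under lithium 450 passed, against 805 by set, 922 with scores (2 members), 1147 with both (2 members), and 3 members without high Tbx21. For these 3 the number of all genes called is not given here, so their count has no background beside it.

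For fluoxetine in HT 218 passed, against 370 by DESeq2, 398 with the replicate block, 30 by set, 431 with scores, 134 with both and 108 without high Tbx21. For fluoxetine in WT 974 passed, against 4003 with the replicate block (1 member), 1992 with scores (2 members) and 0 without high Tbx21 by limma, and DESeq2 called 1 member. For lithium in HT 273 passed, against 449 by DESeq2, 3746 with the block (1 member, Pvalb), 29 by set, 73 with scores, 44 with both and 59 without high Tbx21. For lithium in WT 6478 passed, against 119 by set (1 member), 249 with both, 1618 without high Tbx21, and 5 members with the replicate block. For fluoxetine by genotype 0 passed, against 1 by edgeR, 10 by DESeq2, 8 with the block and 35 with scores. For lithium by genotype 502 passed, against 1021 by DESeq2, 1150 with the block, 0 by set, 2208 with scores, 0 with both and 2 without high Tbx21. For genotype by sex 0 passed, against 1 by DESeq2 and 1 with scores. No number of all genes is given for the 1 member called by DESeq2 (fluoxetine in WT) and the 5 with the replicate block (lithium in WT). Those member counts have no background beside them. The causes were not tested.

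With each library left out in turn, genes called ranged over 1730 to 4155 for genotype under vehicle, 276 to 448 under fluoxetine, 170 to 594 under lithium (members 1 to 1), 111 to 432 for fluoxetine in HT, 338 to 1969 in WT (members 0 to 1), 61 to 379 for lithium in HT, 4961 to 7340 in WT (members 2 to 4), 0 to 8 for fluoxetine by genotype, 0 to 1492 for lithium by genotype, 0 to 0 for genotype by sex and 16 to 21 for sex. The 3 member calls held in all 68 of these fits. No within-set fit was possible for fluoxetine in WT and fluoxetine by genotype. Same-numbered libraries did not pair throughout: 19 of 69 pairs had a correlation of deviations over 0.1, with a median of 0.00915. In 0 of 14 pairs of groups did every pair of libraries pass 0.1. For HT against WT under vehicle in males 5 of 7 did, with r of 0.03 to 0.44. Replicate number also follows the library set among vehicle mice.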
